A study of Mus musculus with 12 samples.

Results

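The first day of muscle differentiation was examined in vehicle-treated C2C12 cells, an immortalized line of mouse myoblasts, by comparing 2 libraries made 24 h after induction with 2 libraries of proliferating cells. These are 4 of the 12 RNA-seq libraries of the series, chosen by stage and treatment as given in the sample titles, and 12545 genes were tested. The proliferating cells (called GM here) were kept at or under 70% confluence in high-glucose medium with 10% fetal bovine serum. The 24 h cells were grown to 90% confluence and then moved to the same base medium with 2% horse serum and 2 ug/ml insulin. All 4 cultures received DMSO, the vehicle of the inhibitor PFI-3 used elsewhere in the series, for 12 h before harvest or before induction, and after induction it was renewed every 24 h. Stage, serum, cell density, insulin and time in DMSO changed together, so their contributions cannot be told apart. The line is an established one that fuses into myotubes in dishes without nerve or other tissue, and the labels call libraries A and B biological duplicates without saying what the letters mark.

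Myoblasts are dividing precursors of muscle fibres. Loss of serum growth factors lets them leave the cell cycle, and the basic helix-loop-helix factors MyoD and myogenin, together with MEF2 proteins, then switch on genes of fusion, of the sarcomere and of the membrane systems that couple nerve signals to contraction. Id proteins and Notch effectors hold this switch back in dividing cells, and the CDK inhibitors p21 and p57 enforce the exit from the cycle.

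The total expected counts of the 4 libraries lay between 12594103 and 13658352, with 5.43% to 6.29% of each total in its top 10 genes. The replicates of the 2 groups were not equally close. For genes averaging 50 counts or more, log2 ratios between libraries B and A had an SD of 0.318 in GM and 0.135 at 24 h. Chi-square over degrees of freedom was 21.1 in GM and 1.83 at 24 h, where counting error alone gives about 1. The GM libraries differed from each other in an ordered way. All 54 genes of ribosome biogenesis were higher in GM library A (median log2 B/A ratio -0.39), as were 27 of 31 targets of SRF and YAP (-0.42). In contrast, 31 of 33 genes of cholesterol synthesis were higher in library B (0.78). The same medians at 24 h were 0.02, 0.01 and 0.00. For these 3 lists GM library B lay nearer to the 24 h libraries than GM library A did. It was not so for every list. Of 38 targets of NRF2, 25 were lower at 24 h, but 28 were higher in GM library B and 10 in GM library A (median log2 B/A ratio 0.18). The part of the difference between the GM libraries in the results was not tested.

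Single genes set the GM libraries furthest apart. The chemokine gene Ccl5 was at 29.9 and 0.369 CPM in libraries A and B, and Serpinb2, which encodes an inhibitor of plasminogen activators, at 80.5 and 13.2 CPM. Tagln, a smooth muscle-type actin-binding protein, was at 752 and 179.5 CPM. In the other direction, Igfbp5 was at 94.7 and 437 CPM, the matrix proteoglycan gene Ogn at 3.45 and 23.8 CPM and Chrnd, a subunit of the acetylcholine receptor, at 2.98 and 20.9 CPM. Throughout, pairs of values name library A first and library B second, and CPM (the usual depth-scaled count unit) are computed on TMM-scaled library totals.

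By the edgeR quasi-likelihood test, 3840 of the 12545 genes were higher at 24 h (30.6%) and 3762 were lower (30.0%), at a Benjamini-Hochberg adjusted p under 0.05. The median log2 fold change over all genes tested was 0.02. With a size of 2-fold or more also required, 1600 genes were higher (12.8%) and 794 lower (6.33%). Changes of 8-fold or more were found upward for 503 genes and downward for 96. Among the genes at least 2-fold higher, 123 had no count in either GM library, so that their fitted fold change depends on the model's prior and is given below as a lower bound against 3 counts over both libraries.

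**Figure D1:**
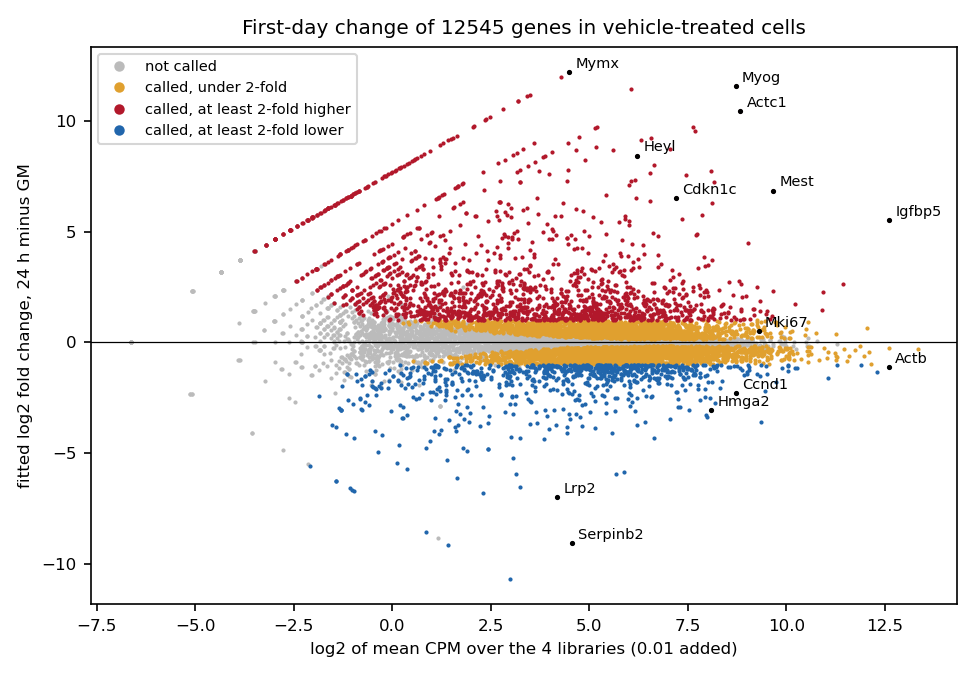
Fitted log2 fold change (24 h minus GM) against the log2 of the mean CPM over the 4 libraries, 1 point per gene. Grey points were not called, yellow ones were called under 2-fold, and red and blue ones were called at least 2-fold higher (1600) or lower (794). The points on the upper diagonal lines are genes with no or very few counts in GM.

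Of the factors that drive muscle fate, myogenin changed most. Of 23 tested genes for myogenic factors, 18 were higher at 24 h and 3 lower, with a median log2 fold change of 1.13 beside 0.02 for all genes. Myog (17928), which encodes myogenin, went from 0.157 and 0.369 CPM in GM to 847 and 838 CPM at 24 h (log2 fold change 11.58, SE 0.16, adjusted p = 2.05e-13). In GM it had 2 and 5 counts, and the log2 fold change was 11.12 without GM library A and 12.31 without GM library B. SE throughout is the absolute log2 fold change divided by the square root of the test's F value. For genes with few GM counts, such as Myog, it can be smaller than counting error alone. Myod1 (17927), already expressed in dividing myoblasts, went from 153 and 180.5 CPM in GM to 253 and 273 CPM at 24 h (log2 fold change 0.65, SE 0.13, adjusted p = 0.000813). The libraries of the 2 stages did not overlap for either gene. With only 2 libraries per stage, such a gap is no support beyond the test. Myf5, the partner of MyoD in commitment, was lower, at 58.7 and 61.2 CPM in GM and 42.8 and 39.0 CPM at 24 h (log2 fold change -0.55, SE 0.15, adjusted p = 0.00721); without 24 h library B its adjusted p was 0.0584. Mef2c, whose protein works with myogenin on muscle promoters, had just reached detection, at 0 and 0.443 CPM in GM and 1.74 and 0.929 CPM at 24 h (log2 fold change 2.50, SE 0.63, adjusted p = 0.00433), and its adjusted p was 0.0501 without 24 h library A. With so few counts its log2 fold change was 1.57 without GM library A and 7.12 without GM library B. At 48 h it was at 71.8 and 73.3 CPM. Rbm24, an RNA-binding protein of muscle splicing, rose from 0.470 and 0.738 to 263 and 267 CPM, and Smyd1, a methyltransferase of sarcomere assembly, from 0.0784 and 0.221 to 32.9 and 29.7 CPM.

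Factors that restrain the muscle programme did not move as 1 group. Of 18 tested, 10 were higher and 5 lower (55.6% and 27.8%, against 30.6% and 30.0% of all genes). Id3, which binds the partners of MyoD and keeps them off DNA, fell from 238 and 249 CPM in GM to 22.7 and 21.9 CPM at 24 h (log2 fold change -3.45, SE 0.16, adjusted p = 4.08e-09), and Id1 fell from 119.6 and 111 to 17.1 and 14.5 CPM (-2.87, SE 0.11). Both 24 h libraries lay far below both GM libraries for these 2 genes. Heyl, a Notch effector, went the other way, from 0 and 0.812 CPM in GM to 145 and 150.1 CPM at 24 h (log2 fold change 8.43, SE 0.27, adjusted p = 1.99e-10), or 7.49 without GM library A and 13.90 without GM library B, which held all of its GM counts. The Notch list as a whole held 13 higher and 3 lower genes of 23 tested (1 lower without 24 h library B). Its ligand gene Dll1 rose from 2.19 and 2.73 to 119.6 and 114 CPM, the modulator Dtx4 from 11.1 and 8.78 to 159 and 159 CPM, and the effector Hey1 from 6.11 and 3.76 to 22.7 and 19.8 CPM. Hes1, the classical Notch target, rose by less, from 53.9 and 44.4 to 77.3 and 75.0 CPM (log2 fold change 0.63, SE 0.12, adjusted p = 0.000853). Megf10, which is expressed in muscle precursor cells, had the highest FPKM of the list as a mean over the 4 libraries and rose from 32.6 to 59.6 FPKM.

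**Figure D2:**
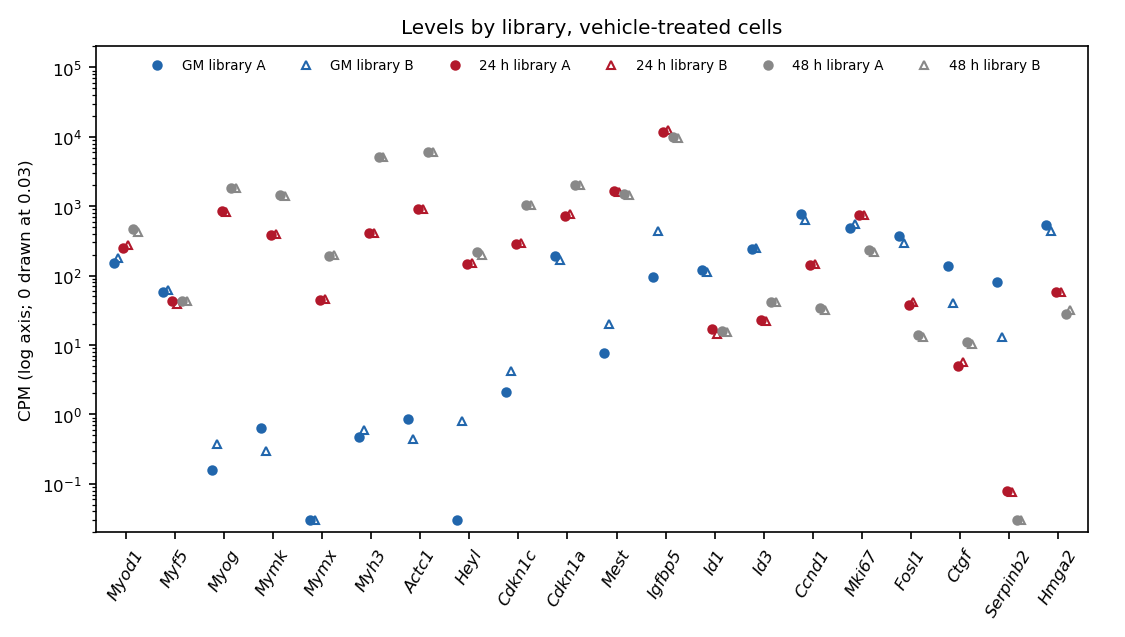
CPM of 20 genes in each vehicle-treated library on a log axis, with libraries A as filled circles and libraries B as open triangles; blue is GM, red 24 h and grey 48 h. Myog, Mymk, Myh3 and Actc1 lie under 1 CPM in GM and between 389 and 912 CPM at 24 h, while Id1, Id3, Ccnd1, Fosl1 and Hmga2 lie lower at 24 h than in GM.

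Myoblast fusion is carried out by 2 muscle-specific membrane proteins, myomaker and myomixer. Mymk, the myomaker gene, rose from 0.627 and 0.295 CPM in GM to 389.9 and 403 CPM at 24 h (log2 fold change 9.73, SE 0.17, adjusted p = 1.1e-12; 10.34 without GM library A). Mymx, the myomixer gene, had no count in either GM library and reached 44.5 and 45.6 CPM at 24 h, at least 395-fold higher (adjusted p = 1.14e-10). Their means at 48 h were 1432 and 194 CPM, above those at 24 h. The wider fusion list holds adhesion and cytoskeletal genes that are also used by other cells. Of 27 tested, 12 were higher and 5 lower (median 0.19). These were 44.4% and 18.5%, against 30.6% and 30.0% of all genes. The number of lower members was 3 without 24 h library A and 8 without GM library B. Cd9, a tetraspanin with the highest FPKM of this list, was at 229.6 and 314 CPM in GM and 321 and 315 CPM at 24 h. It did not pass the test (adjusted p = 0.184). Its log2 fold change was 0.01 without GM library A and 0.47 without GM library B.

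Genes of the sarcomere, the contractile unit of muscle, had some of the largest changes. Among thin filament genes, 18 of 22 tested were higher and 1 lower, with a median log2 fold change of 5.68. Among myosin and thick filament genes the numbers were 17 and 2 of 21, and for the Z-disc and M-band, the borders and midline of the unit, 30 and 1 of 36. The medians of the last 2 lists were 6.84 and 4.32, and with genes of at most 3 GM counts set to the bound of 3 counts they were 5.19 and 3.51.

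Embryonic, cardiac and slow isoforms were present at 24 h as well as fast ones. Actc1, cardiac alpha-actin, rose from 0.862 and 0.443 CPM in GM to 911 and 907 CPM at 24 h (log2 fold change 10.44, SE 0.13, adjusted p = 1.82e-13). Acta1, skeletal alpha-actin, rose from 10.1 and 4.13 CPM in GM to 545 and 551 CPM at 24 h (log2 fold change 6.28, SE 0.22, adjusted p = 4.38e-10; 7.05 without GM library A). Per length, Actc1 stood at 656 FPKM and Acta1 at 389.9 FPKM at 24 h, while the cytoplasmic actin genes fell, Actb from 4399.9 to 2115 FPKM and Actg1 from 3165 to 1674 FPKM. The cytoplasmic forms thus remained above the muscle forms at 24 h; the expected counts of Actb were fractional, so reads shared with related genes could shift it. Myh3, embryonic myosin heavy chain, rose from 0.470 and 0.591 CPM in GM to 412 and 407 CPM at 24 h (log2 fold change 9.56, SE 0.13, adjusted p = 2.05e-13), and Mybph, a myosin-binding protein, from 0.235 and 0.369 to 190.1 and 191 CPM. Myl1, the fast alkali light chain, rose from 0 and 0.148 to 72.7 and 68.2 CPM, a ratio of 926-fold with a 95% counting interval of 256 to 7650 that covers counting error only.

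Troponin, the calcium switch of the thin filament, showed how far the genes of 1 complex differed at the start. Tnni1, the slow inhibitory subunit, had 0 and 1 counts in GM and 139 and 128 CPM at 24 h. Its fast counterpart Tnni2 had none in GM and 21.3 and 23.5 CPM at 24 h, at least 196-fold higher. Tnnt2, the cardiac tropomyosin-binding subunit, was already at 67.6 and 51.8 CPM in GM and rose to 325 and 349 CPM (log2 fold change 2.50, SE 0.11, adjusted p = 3.45e-09). Per length, Tnnt2 at 302 FPKM and Tnni1 at 132 FPKM exceeded Tnnt1 at 77.6, Tnnc2 at 70.5 and Tnni2 at 37.9 FPKM at 24 h. Tpm1, a tropomyosin gene with muscle and non-muscle isoforms, was at 1625 and 1055 CPM in GM and 1064 and 1121 CPM at 24 h and was not called (log2 fold change -0.29, SE 0.14, adjusted p = 0.0884). Its GM libraries lay on either side of the 24 h pair: the log2 fold change was 0.05 without GM library A and -0.57 without GM library B.

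Ttn, the giant spring protein titin, rose from 2.04 and 2.88 CPM in GM to 536 and 539 CPM at 24 h (log2 fold change 7.76, SE 0.13, adjusted p = 9.41e-13). Csrp3, a Z-disc LIM protein, had no count in GM and was at least 33.6-fold higher at 3.88 and 3.79 CPM. Myom3, an M-band myomesin, rose from 0 and 0.0738 to 24.7 and 24.0 CPM. Cryab, a small heat shock protein found at the Z-disc, had the highest mean FPKM of the Z-disc list and rose from 167 to 266 FPKM. Hsp90aa1, a chaperone placed in the thick filament list for its part in myosin folding, fell from 1516 and 1345 to 693 and 659.7 CPM (log2 fold change -1.08, SE 0.08, adjusted p = 3.51e-07). Means at 48 h were above those at 24 h for every sarcomere gene named here except Hsp90aa1, for example Myh3 at 5059.6 and 5098 CPM and Ttn at 2639 and 2713 CPM.

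The membrane systems of the fibre changed in the same direction. Of the genes of excitation-contraction coupling, 23 of 27 tested were higher and 1 lower (median 3.19, or 2.48 with low genes at the bound). Atp2a1, the calcium pump SERCA1, rose from 0.157 and 0.369 CPM in GM to 153 and 162 CPM at 24 h (log2 fold change 9.16, SE 0.15, adjusted p = 5.95e-13; 9.89 without GM library B). Scn4a, the muscle sodium channel, had no count in GM and was at least 91.3-fold higher at 9.27 and 11.5 CPM, and Casq2, a calcium store protein, rose from 0.235 and 0.148 to 57.4 and 61.3 CPM. Bin1, which shapes transverse tubules, had the highest FPKM of the list and rose from 77.4 to 195 FPKM. At the nerve contact, 11 of 13 genes were higher and 0 lower. Chrng, the fetal receptor subunit, rose from 0.470 and 1.18 CPM in GM to 132 and 131 CPM at 24 h (log2 fold change 7.28, SE 0.16, adjusted p = 5.54e-12; 8.10 without GM library B). Chrna1, the ligand-binding subunit, was already at 189.9 and 189 CPM in GM and rose to 814 and 825 CPM; its counts were fractional in every library. The dystrophin complex, which anchors the fibre to the matrix, held 11 higher and 0 lower genes of 17. Its core gene Dag1 rose from 248 and 298 to 1311 and 1377 CPM and the sarcoglycan gene Sgca from 0.314 and 1.11 to 30.0 and 28.9 CPM.

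Enzymes of muscle energy supply were less uniform. Of 37 tested, 20 were higher and 10 lower (54.1% and 27.0%, against 30.6% and 30.0% of all genes). The number higher was 13 when only the 4 libraries were fitted. Ckm, muscle creatine kinase, had 1 and 1 counts in GM and 74.6 and 71.7 CPM at 24 h, a ratio of 962-fold with a 95% counting interval of 266 to 7950. Mb, myoglobin, rose from 0.235 and 0 to 18.5 and 18.8 CPM and Cox6a2, the muscle form of a cytochrome oxidase subunit, from 0.0784 and 0 to 4.68 and 4.80 CPM. Gapdh, the glycolytic enzyme with the highest FPKM of the list, fell slightly, from 6784 and 6852 to 5539.9 and 5781 CPM (log2 fold change -0.27, SE 0.06, adjusted p = 0.00199). In the nuclear-encoded respiratory chain 21 of 75 were higher, 9 lower and 45 not called, a share higher (28.0%) near the 30.6% of all genes, and the number higher was 13 without 24 h library A and 13 without 24 h library B. Ndufv3, a complex I subunit, changed most, from 25.1 and 22.5 to 62.9 and 55.0 CPM (1.31, SE 0.10). Among mitochondrial regulators, Ucp2, an inner membrane carrier, rose from 7.45 and 17.5 to 123 and 118 CPM and Pdk2, a brake on pyruvate oxidation, from 2.35 and 4.28 to 19.6 and 18.7 CPM, while 13 of 35 were higher and 11 lower (37.1% and 31.4%, against 30.6% and 30.0% of all genes).

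A stricter reading of the switch asks which genes went from at most 3 counts in both GM libraries to at least 100 in both 24 h libraries, and 45 genes did so. Besides Mymx, Tnni1, Tnni2, Scn4a and other genes above they included Myh1 and Myh7, an adult fast and a slow myosin heavy chain with partly fractional counts, the thin filament nucleators Lmod2 and Lmod3, the myosin chaperone Unc45b, the membrane repair gene Trim72 and the calcium channel subunit Cacna1s. Hfe2, hemojuvelin, an iron regulator and BMP co-receptor of muscle, was at least 340-fold higher at 37.9 and 39.5 CPM. Btbd17 was at least 187-fold higher at 21.6 and 21.1 CPM and Ppfia4, a liprin, rose from 0.157 and 0 to 53.3 and 53.9 CPM. Fgf21, a hormone of the fibroblast growth factor family, had 0 and 1 counts in GM and 19.5 and 20.5 CPM at 24 h, a ratio of 526-fold with a 95% counting interval of 94.0 to 20800. The opposite switch, from at least 100 counts to at most 3, was made by 2 genes, Serpinb2 and Lgr6. Lgr6, a receptor for R-spondins, fell from 17.2 and 20.4 to 0.238 and 0.155 CPM (log2 fold change -6.52, SE 0.46, adjusted p = 2.08e-07).

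The promoters of these genes were read to see what sequence they share. RefSeq windows (GRCm38.p6) were found for 10011 of the 12545 genes tested, and the 250 bases before the start were searched on both strands. The E-box CAGCTG, a binding site of MyoD and myogenin, was present in 284 of 1190 promoters of genes at least 2-fold higher (23.9%). Among genes at least 2-fold lower it was present in 14.1% of 615, among genes not called in 13.1% and among all genes tested in 14.6%. Over all 27025 genes with a window the share was 14.7%. Among the 52 genes of the 3 sarcomere lists that were higher and had a window, 38.5% held the E-box, 19.2% a MEF2 motif and 9.62% a CArG box, the motif of serum response factor. The shares of all genes tested for the last 2 were 1.97% and 1.44%. These shares are descriptions without a test, base composition was not matched, and a match is not a bound site.

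The windows of 7 induced genes are shown because each belongs to a gene described here as strongly induced and holds 1 of these motifs; capitals mark the E-box CAGCTG in the first 5, the CArG box in Actc1 and the MEF2 motif in Casq2. They lie at chr1:135799171-135799420 on the plus strand (Tnni1), chr7:19410844-19411093 on the plus strand (Ckm), chr1:87205561-87205810 on the plus strand (Chrng), chr7:126463074-126463323 on the minus strand (Atp2a1), chr6:30733256-30733505 on the plus strand (Mest), chr2:114052876-114053125 on the minus strand (Actc1) and chr3:102086165-102086414 on the plus strand (Casq2), and each is written 5′ to 3′ toward the start. For Tnni1 and Mest, which have several windows, the one with the match is shown.
Tnni1: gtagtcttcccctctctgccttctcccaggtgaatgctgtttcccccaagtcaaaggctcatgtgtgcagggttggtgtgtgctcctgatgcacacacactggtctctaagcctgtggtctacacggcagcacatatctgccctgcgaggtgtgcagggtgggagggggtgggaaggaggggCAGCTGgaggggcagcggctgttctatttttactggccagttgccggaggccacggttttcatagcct
Ckm: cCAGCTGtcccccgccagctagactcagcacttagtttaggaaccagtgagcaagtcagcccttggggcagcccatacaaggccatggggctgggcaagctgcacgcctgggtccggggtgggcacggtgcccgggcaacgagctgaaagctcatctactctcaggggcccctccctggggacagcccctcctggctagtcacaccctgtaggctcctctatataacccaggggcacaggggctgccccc
Chrng: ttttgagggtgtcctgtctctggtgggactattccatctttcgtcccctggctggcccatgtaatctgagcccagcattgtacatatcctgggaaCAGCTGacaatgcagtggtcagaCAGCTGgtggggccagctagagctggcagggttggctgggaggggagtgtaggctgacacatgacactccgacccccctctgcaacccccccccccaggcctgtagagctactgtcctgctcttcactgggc
Atp2a1: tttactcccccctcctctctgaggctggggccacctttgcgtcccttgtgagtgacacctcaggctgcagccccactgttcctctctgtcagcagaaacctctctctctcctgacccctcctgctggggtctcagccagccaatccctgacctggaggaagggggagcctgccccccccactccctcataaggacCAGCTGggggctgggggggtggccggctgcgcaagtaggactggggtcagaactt
Mest: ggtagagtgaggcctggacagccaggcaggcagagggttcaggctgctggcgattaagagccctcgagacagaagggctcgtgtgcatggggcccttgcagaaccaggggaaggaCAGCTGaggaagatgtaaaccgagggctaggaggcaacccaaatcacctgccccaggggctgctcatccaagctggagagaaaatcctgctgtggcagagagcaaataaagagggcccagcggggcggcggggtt
Actc1: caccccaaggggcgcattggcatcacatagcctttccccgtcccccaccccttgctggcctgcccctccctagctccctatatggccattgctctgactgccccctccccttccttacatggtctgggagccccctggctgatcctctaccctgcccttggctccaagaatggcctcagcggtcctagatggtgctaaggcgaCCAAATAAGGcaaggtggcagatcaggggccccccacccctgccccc
Casq2: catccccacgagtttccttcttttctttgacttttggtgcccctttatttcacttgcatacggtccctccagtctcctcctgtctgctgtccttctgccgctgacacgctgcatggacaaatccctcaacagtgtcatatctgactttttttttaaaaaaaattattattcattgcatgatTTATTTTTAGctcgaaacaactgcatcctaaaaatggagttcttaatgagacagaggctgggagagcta

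**Figure D3:**
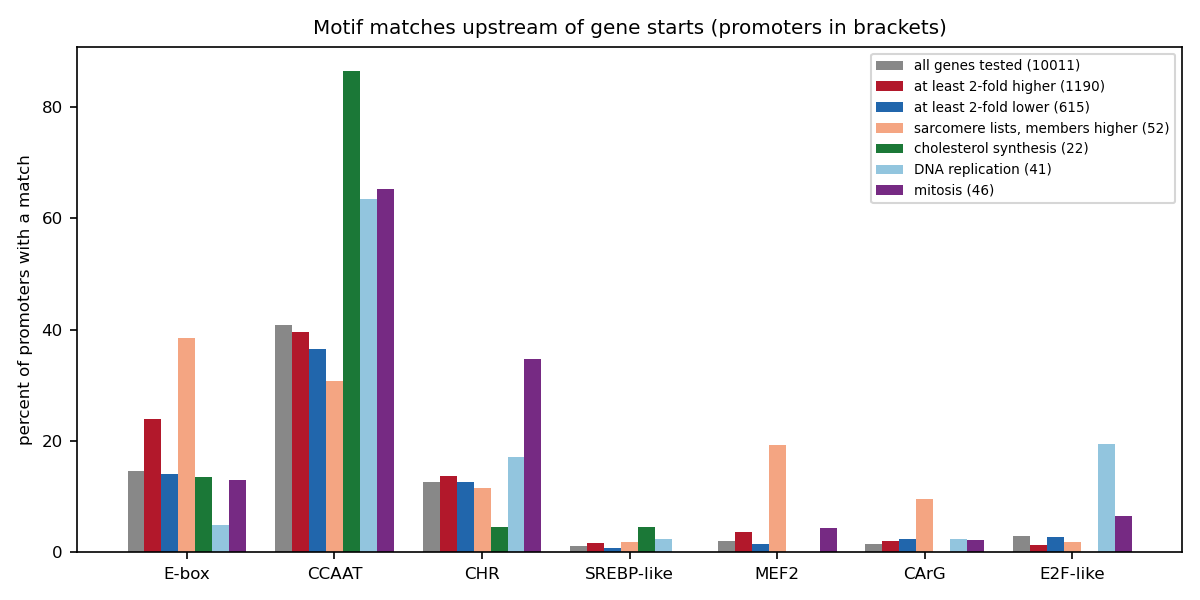
Percent of promoters (250 bases before the start, both strands) with a match to each of 7 motifs, by gene set, with the number of promoters in brackets. The E-box is in 23.9% of promoters of genes at least 2-fold higher beside 14.6% of all genes tested, and CCAAT in 86.4% of cholesterol synthesis promoters.

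Genes of the cell cycle were mostly lower, those of DNA replication by more than those of mitosis. Of the 52 genes of DNA replication, 45 were lower and 2 higher, with a median log2 fold change of -0.71. Mcm5, a subunit of the replicative helicase, fell from 280.1 and 281 CPM in GM to 131 and 131 CPM at 24 h (log2 fold change -1.10, SE 0.06, adjusted p = 1.79e-08), the loading factor Cdc6 from 99.4 and 74.5 to 33.1 and 33.7 CPM, Orc1 of the origin complex from 36.8 and 27.2 to 10.5 and 9.75 CPM and Rrm2, which supplies nucleotides, from 812 and 674 to 316 and 309 CPM. E2f2, a transcription factor of the same list, went the other way, from 33.5 and 46.6 CPM in GM to 154 and 158 CPM at 24 h (log2 fold change 1.96, SE 0.17, adjusted p = 9.49e-07). Of the mitosis genes, 32 of 54 were lower and 3 higher, with a median nearer to 0, at -0.28, and 1 fell at least 2-fold. That gene was Mybl2, a transcription factor of the late cycle, from 149.7 and 104 to 47.6 and 46.4 CPM. The kinase gene Aurka fell from 165 and 141 to 78.6 and 83.6 CPM and Ube2c, of the ubiquitin machinery of anaphase, from 256 and 235 to 137 and 137 CPM.

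Mki67, the gene of the proliferation marker Ki-67, was higher at 24 h, at 489 and 553 CPM in GM and 739 and 740.2 CPM at 24 h (log2 fold change 0.50, SE 0.08, adjusted p = 0.000194). At 48 h it was at 237 and 222 CPM, under the GM level. Ccna2, cyclin A2, was at 387 and 357 CPM in GM and 315 and 323 CPM at 24 h; its log2 fold change of -0.22 (adjusted p = 0.0279) was not called without GM library A, without either 24 h library, in the fits of only the 4 libraries or on FPKM values, with adjusted p between 0.0596 and 0.126 there. The cyclins of the entry into the cycle moved apart. Ccnd1, cyclin D1, fell from 777 and 632 CPM in GM to 144 and 148 CPM at 24 h (log2 fold change -2.27, SE 0.09, adjusted p = 1.14e-09) and Ccnd2 from 41.7 and 30.6 to 12.3 and 12.2 CPM, while Ccnd3, the D cyclin of differentiated muscle, rose from 185 and 188 to 379.5 and 390.2 CPM (1.05, SE 0.08). In the list of cyclins and kinases, 14 of 20 were lower and 2 higher.

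Of the brakes of the cycle, 13 of 18 tested were higher and 0 lower (median 0.62). Cdkn1c, p57, rose from 2.12 and 4.21 CPM in GM to 286 and 299.5 CPM at 24 h (log2 fold change 6.52, SE 0.17, adjusted p = 2.29e-11; 7.11 without GM library B). Cdkn1a, p21, rose from 189.7 and 169.7 CPM in GM to 722 and 781 CPM at 24 h (log2 fold change 2.06, SE 0.11, adjusted p = 2.25e-08) and Rb1, the retinoblastoma protein that holds E2F factors in check, from 31.8 and 36.9 to 162 and 168 CPM. Per length Cdkn1a, at 409 FPKM, remained above Cdkn1c, at 159 FPKM. The wider list of p53 targets, to which Cdkn1a also belongs, did not share this direction. It held 11 higher and 13 lower of 31 (35.5% and 41.9%, against 30.6% and 30.0% of all genes). Its median was -0.03, or 0.02 on FPKM values. Among its rises were those of Trp53inp1, from 11.7 and 18.5 to 80.5 and 76.2 CPM, and of the antiproliferative gene Btg2, from 13.8 and 15.7 to 54.5 and 53.6 CPM.

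Motif shares of the promoters of the cycle lists are given as a description. The CCAAT box was in 63.4% of 41 replication promoters and 65.2% of 46 mitosis promoters, against 40.9% of all genes tested. An E2F-like motif, TTTCCCGC or TTTGGCGC, was in 19.5% of replication promoters and 6.52% of mitosis promoters (2.90% of all tested). The CHR motif TTTGAA, a site of the late-cycle repressor complex, was in 34.8% of mitosis promoters and 12.7% of all. Genes at least 2-fold lower as a whole held them at 36.6%, 2.76% and 12.7%. The windows of Mcm5 (chr8:75109259-75109508 on the plus strand) and Cdc6 (chr11:98907901-98908150 on the plus strand) are shown as replication genes that fell, with the E2F-like motif in capitals; it lies on the opposite strand in both.
Mcm5: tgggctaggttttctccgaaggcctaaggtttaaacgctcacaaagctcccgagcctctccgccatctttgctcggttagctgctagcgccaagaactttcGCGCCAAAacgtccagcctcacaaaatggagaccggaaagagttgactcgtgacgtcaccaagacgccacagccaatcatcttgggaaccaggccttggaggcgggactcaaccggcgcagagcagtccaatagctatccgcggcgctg
Cdc6: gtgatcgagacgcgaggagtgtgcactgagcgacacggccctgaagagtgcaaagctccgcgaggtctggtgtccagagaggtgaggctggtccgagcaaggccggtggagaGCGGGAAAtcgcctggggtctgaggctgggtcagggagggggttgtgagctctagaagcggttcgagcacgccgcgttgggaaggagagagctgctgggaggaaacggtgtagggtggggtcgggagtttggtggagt

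Most genes that answer serum and cell tension were lower. Of the immediate early genes, which growth factors switch on within minutes, 25 of 37 tested were lower and 5 higher (median -0.95). Fosl1, an AP-1 subunit, fell from 367 and 294 CPM in GM to 37.2 and 41.5 CPM at 24 h (log2 fold change -3.07, SE 0.12, adjusted p = 7.53e-10), Ier3 from 86.5 and 67.1 to 7.61 and 8.98 CPM and Myc from 184 and 118 to 62.6 and 64.9 CPM. Fos itself was low in both stages, at 3.21 and 2.36 CPM in GM and 2.69 and 2.01 CPM at 24 h, and was not called (adjusted p = 0.546). Junb, the AP-1 gene with the highest FPKM of the list, fell from 359 and 306 to 188 and 195 CPM. Spry1, a feedback inhibitor of receptor tyrosine kinases, was among the 5 that rose, from 0.235 and 0.960 to 14.9 and 9.21 CPM (log2 fold change 4.29, SE 0.40, adjusted p = 2.43e-06; 3.63 without GM library A and 5.62 without GM library B).

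Targets of SRF and YAP, transcription regulators that read actin dynamics and cell spreading, gave 22 lower and 5 higher of 31 (median -0.97). Ctgf, a YAP target, fell from 139.5 and 40.0 CPM in GM to 4.99 and 5.65 CPM at 24 h (log2 fold change -4.07, SE 0.49, adjusted p = 1.83e-05; -2.91 without GM library A). Tagln, an actin-binding protein of smooth muscle, fell from 752 and 179.5 to 46.8 and 43.1 CPM (log2 fold change -3.37, SE 0.54; -2.00 without GM library A). For both genes GM library A was more than 2 times library B, but both lay above the 24 h pair. The number of lower members was 21 without GM library A and 25 without GM library B. Among the largest losses of CPM of all genes were the cytoskeletal genes Actb, from 10022 and 7025 to 3895 and 3977 CPM, Vim, from 7885 and 6576 to 2861 and 2851 CPM, and Actg1, from 6696 and 5443 to 3090.2 and 3090.5 CPM.

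Among the largest falls by ratio, in genes of at least 10 CPM, were those of receptors and enzymes. Serpinb2 fell from 80.5 and 13.2 CPM in GM to 0.0793 and 0.0774 CPM at 24 h, a decrease of 585-fold with a 95% counting interval of 162 to 4840 (adjusted p = 0.000152). Lrp2, the endocytic receptor megalin, fell from 40.6 and 31.6 to 0.317 and 0.232 CPM (log2 fold change -6.99, SE 0.41, adjusted p = 4.17e-08) and Ptgs2, the inducible cyclooxygenase, from 273 and 107 to 11.4 and 7.82 CPM. The organic anion transporter gene Slco4a1 fell from 24.3 and 56.7 to 2.54 and 2.17 CPM, the acyl-CoA synthetase Acsbg1 from 48.1 and 32.9 to 3.25 and 2.48 CPM and the neuroendocrine gene Ptprn from 66.5 and 37.8 to 4.12 and 3.41 CPM. Itgb7, a leukocyte integrin subunit, fell from 25.1 and 33.7 to 1.90 and 2.01 CPM, the neurofilament gene Nefm from 32.7 and 33.9 to 2.62 and 2.32 CPM, Car8 from 10.5 and 31.2 to 1.43 and 1.78 CPM and 1700012B09Rik from 29.7 and 25.0 to 1.27 and 1.39 CPM. The GM and 24 h libraries did not overlap for any of these 10 genes, which the rule for naming them required.

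Most genes of the protein synthesis machinery were lower. Of 54 genes of ribosome biogenesis, 52 were lower, 32 of them at least 2-fold, and 0 higher (median -1.04). Grwd1, a ribosome assembly factor, fell from 82.8 and 65.8 CPM in GM to 24.9 and 25.9 CPM at 24 h (log2 fold change -1.55, SE 0.12, adjusted p = 5.21e-07), Nhp2 of the small nucleolar particles from 121 and 94.4 to 38.4 and 37.1 CPM and Rrp9, which binds the U3 RNA, from 99.9 and 69.9 to 28.4 and 33.7 CPM. The abundant nucleolar proteins Npm1 and Ncl fell from 1510 and 1129 to 587 and 595 CPM and from 1693 and 1164 to 673 and 719.9 CPM. Of the 78 genes of the cytosolic ribosome itself, 73 were lower and 0 higher, but none by 2-fold (median -0.41). Rps2, the one with the highest FPKM, fell from 3803 and 3651 to 2399 and 2453 CPM, and Rpl14 changed most, from 628 and 586 to 372 and 368 CPM (-0.71, SE 0.07). As shares of all counts, ribosomal protein genes took 5.58% and 5.48% in GM and 4.30% and 4.25% at 24 h. The elongation factor gene Eef1a1 fell from 11615 and 11023 to 9467 and 9186 CPM (-0.28, SE 0.06) and the chaperone gene Hspa8 from 5314 and 4807 to 2551 and 2507 CPM.

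Genes of amino acid supply and of redox defence were also mostly lower. In the list of ATF4 targets and amino acid genes, 26 of 44 were lower and 4 higher. Atf4 itself was at 471 and 459 CPM in GM and 428 and 432 CPM at 24 h and was not called (adjusted p = 0.607). The members with the largest changes were rises, those of Fgf21, of the mTOR inhibitor gene Ddit4, from 17.6 and 24.7 to 103 and 97.3 CPM, and of the lipoprotein receptor gene Vldlr, from 3.21 and 2.14 to 10.5 and 9.52 CPM. Among NRF2 targets, which protect against oxidants, 25 of 38 were lower and 5 higher (median -0.80). Gclm, a subunit of the enzyme that starts glutathione synthesis, fell from 105 and 101 CPM in GM to 29.7 and 27.3 CPM at 24 h (log2 fold change -1.85, SE 0.09, adjusted p = 4.48e-09) and Ftl1, ferritin light chain, from 2784 and 3599.5 to 1046 and 1064 CPM. Gsta1, a glutathione transferase whose counts were fractional in both GM libraries and can be shared with close copies, fell from 10.6 and 10.0 to 0.0793 and 0.619 CPM. Proteasome genes gave 21 lower and 5 higher of 38. When only the 4 libraries were fitted the numbers were 14 and 3 of 36, or 11 and 1 with the letters A and B also fitted. Chaperones of the endoplasmic reticulum gave 8 lower and 7 higher of 24, none by 2-fold. Their shares of 33.3% lower and 29.2% higher were near the 30.0% and 30.6% of all genes. Genes of autophagy and atrophy leaned upward, with 21 higher and 2 lower of 37. Map1lc3a, a coat protein of autophagosomes, rose from 14.9 and 19.6 to 53.6 and 55.5 CPM and the mitophagy receptor gene Bnip3 from 12.4 and 18.7 to 43.4 and 42.9 CPM.

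Cholesterol synthesis had the highest share of members called higher among the 48 lists examined. Of its 33 genes, which also cover fatty acid synthesis and cholesterol efflux and most of which SREBP factors control, 32 were higher, 28 of them at least 2-fold, and 0 lower (median 1.85). Hmgcs1, which makes the HMG-CoA from which the pathway starts, rose from 69.3 and 184 CPM in GM to 812 and 788 CPM at 24 h (log2 fold change 2.66, SE 0.33, adjusted p = 2.55e-05; 3.53 without GM library B). Insig1, the sensor that retains SREBP, rose from 22.5 and 65.8 CPM in GM to 275 and 289 CPM at 24 h (log2 fold change 2.67, SE 0.34, adjusted p = 3.16e-05; 3.65 without GM library B). Acss2, which makes acetyl-CoA, rose from 1.49 and 4.50 to 28.1 and 26.7 CPM and the sterol reductase gene Tm7sf2 from 3.21 and 3.62 to 23.9 and 25.8 CPM. Scd2, a fatty acid desaturase with the highest FPKM of the list, rose from 503 and 1016 to 4790.3 and 4784 CPM; its counts were fractional in every library. GM library B was above library A in all 5 genes, and both lay below the 24 h pair. The list took 0.326% and 0.516% of counts in GM, 1.49% and 1.48% at 24 h, and 0.813% and 0.803% at 48 h. Hmgcs1 was at 237 and 242 CPM and Insig1 at 87.4 and 85.8 CPM at 48 h, below their 24 h values.

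In the promoters of this list the CCAAT box stood out by share: 19 of 22 held it (86.4%), beside 40.9% of all genes tested. The strict SREBP-like motif TCACNCCAC was in 1 of them, Hmgcs1, and in 1.23% of all. The windows of Hmgcs1 (chr13:119690101-119690350 on the plus strand) and Insig1 (chr5:28071162-28071411 on the plus strand) show 3 and 1 copies of the box, in capitals and here on the opposite strand, as ATTGG.
Hmgcs1: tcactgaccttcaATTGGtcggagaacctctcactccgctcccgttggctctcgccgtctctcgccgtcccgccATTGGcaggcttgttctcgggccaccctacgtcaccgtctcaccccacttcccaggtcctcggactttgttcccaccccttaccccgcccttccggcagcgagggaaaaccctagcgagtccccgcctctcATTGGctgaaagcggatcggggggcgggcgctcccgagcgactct
Insig1: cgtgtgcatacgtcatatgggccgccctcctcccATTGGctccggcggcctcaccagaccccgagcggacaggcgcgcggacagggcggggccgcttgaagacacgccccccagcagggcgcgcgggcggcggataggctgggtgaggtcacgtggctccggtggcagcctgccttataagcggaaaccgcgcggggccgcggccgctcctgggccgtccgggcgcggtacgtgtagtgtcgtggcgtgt

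**Figure D4:**
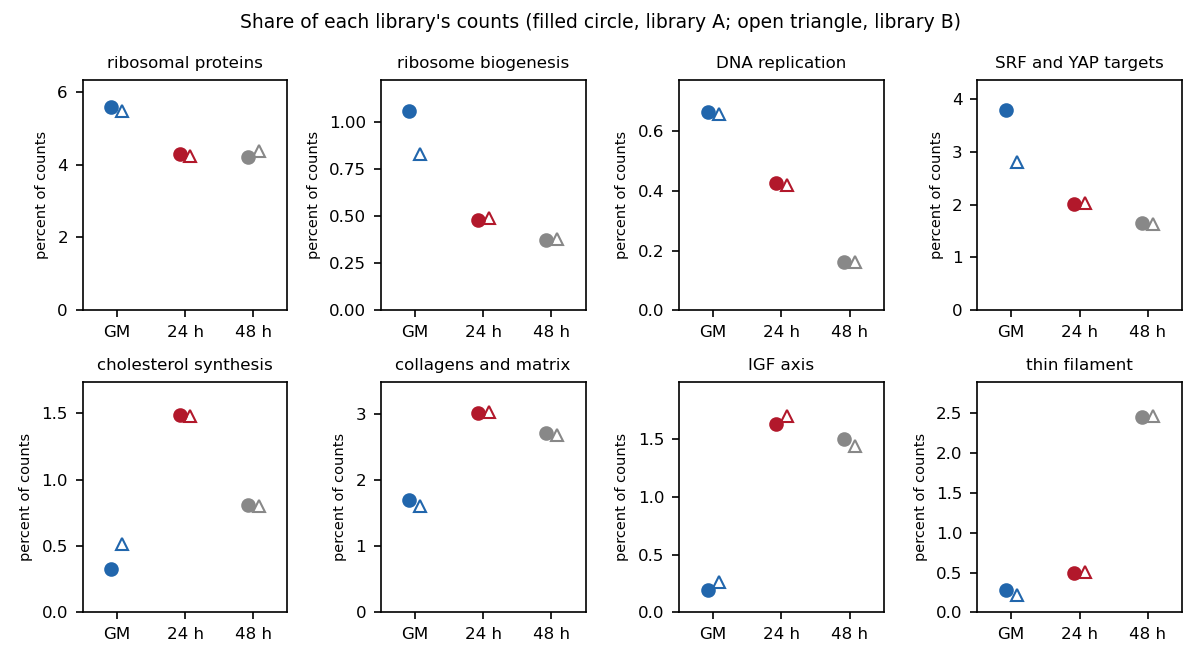
Percent of each vehicle-treated library's expected counts taken by 8 gene lists in GM, at 24 h and at 48 h, with library A as a filled circle and B as an open triangle. The cholesterol list is at 0.326% and 0.516% in GM and 1.49% and 1.48% at 24 h, and the ribosome biogenesis list falls from 1.06% and 0.829% to 0.482% and 0.489%.

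Genes of the matrix were mostly higher. Of collagens and other matrix genes, 33 of 49 tested were higher and 8 lower. Col3a1 and Col1a1, chains of fibrillar collagens, rose from 587 and 742 to 3298 and 3182 CPM and from 38.2 and 38.5 to 399.5 and 396 CPM, and Col6a2, of the microfibrils around muscle fibres, from 6.35 and 10.6 CPM in GM to 447 and 458 CPM at 24 h (log2 fold change 5.73, SE 0.21, adjusted p = 4.92e-10). Sparc, a collagen-binding protein, rose from 904 and 1168 to 2783 and 2884 CPM and Fn1, fibronectin, from 3944 and 2689.6 to 5107 and 5297 CPM (log2 fold change 0.65, SE 0.14, but 0.40 without GM library B). Among matrix proteases and their inhibitors, 18 of 28 were higher and 6 lower, the latter including Plaur, the urokinase receptor gene, which fell from 192 and 124 to 12.0 and 14.5 CPM. The integrins held 8 higher and 4 lower of 17 (47.1% and 23.5%, against 30.6% and 30.0% of all genes). Itga7, the laminin receptor of muscle, rose from 235 and 246 CPM in GM to 679 and 684 CPM at 24 h (adjusted p = 9.73e-10) and Itga11, a collagen receptor, from 0.392 and 0.960 to 6.26 and 7.20 CPM. Itgb1, the shared beta subunit, was at 912 and 632 CPM in GM and 633 and 634 CPM at 24 h and was not called (adjusted p = 0.108). Its log2 fold change was 0.00 without GM library A and -0.52 without GM library B.

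Of the insulin-like growth factor axis, 14 of 25 genes were higher and 4 lower. Igfbp5, a secreted binding protein of these factors, showed the largest gain in CPM of all genes, from 94.7 and 437 CPM in GM to 11816 and 12546 CPM at 24 h (log2 fold change 5.52, SE 0.76, adjusted p = 5.75e-05). The GM libraries were far apart, with 4.80 without library A and 7.01 without library B, and both lay far below the 24 h pair. Igf2 rose from 1.57 and 1.55 CPM in GM to 143 and 145 CPM at 24 h (log2 fold change 6.52, SE 0.13, adjusted p = 4e-12) and Igf1 from 0.157 and 0.295 to 15.0 and 13.4 CPM. Mest, an imprinted gene that is active from the paternal copy, rose from 7.60 and 20.2 CPM in GM to 1639 and 1592 CPM at 24 h (log2 fold change 6.85, SE 0.29, adjusted p = 2.02e-09; 7.73 without GM library B). Igf2 was at 866 and 815 CPM at 48 h, while Mest was at 1496 and 1435 CPM and Igfbp5 at 10008 and 9524 CPM there. The list took 0.195% and 0.264% of counts in GM and 1.63% and 1.70% at 24 h. Most of the 24 h share was Igfbp5 alone, with 149071 and 162103 counts. The median log2 fold change of the list was 0.58.

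Genes of the TGF-beta and BMP pathways moved both ways, 18 higher and 14 lower of 40 (45.0% and 35.0%, against 30.6% and 30.0% of all genes). Grem1, a secreted BMP antagonist, fell from 403 and 419 CPM in GM to 75.3 and 75.6 CPM at 24 h (log2 fold change -2.44, SE 0.08, adjusted p = 1.81e-10), and Smad9, a receptor-regulated SMAD with fractional counts, from 20.8 and 17.8 to 3.09 and 3.10 CPM. Chrd, chordin, another BMP antagonist, rose from 1.18 and 1.99 to 10.6 and 11.6 CPM. Of chemokines and cytokines, 26 of 45 were lower and 8 higher. Csf1, the macrophage colony-stimulating factor, fell from 1345 and 962 CPM in GM to 247 and 256 CPM at 24 h (log2 fold change -2.20, SE 0.12, adjusted p = 2.24e-08). Ccl11, eotaxin, rose from 0.0784 and 0.148 to 4.12 and 3.02 CPM. Ccl5 was called lower (adjusted p = 0.0477), but without GM library A the log2 fold change was 2.05 (adjusted p = 0.397), and the call was also lost without 24 h library A (adjusted p = 0.154) or B (adjusted p = 0.165). The interferon response list held 19 higher, 0 lower and 20 not called (median 0.97, or 0.71 with low genes at the bound). Among the higher genes Parp14 rose from 0.705 and 1.18 to 7.37 and 8.36 CPM and Igtp from 0.0784 and 0.443 to 3.01 and 2.48 CPM.

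In the list of polycomb and repressive chromatin the high mobility group genes of dividing and undifferentiated cells fell most. Hmga2 fell from 531 and 439.5 CPM in GM to 57.9 and 58.7 CPM at 24 h (log2 fold change -3.06, SE 0.12, adjusted p = 9.85e-10) and Hmga1, whose counts are fractional, from 160.5 and 116 to 10.6 and 10.4 CPM. Hdac11, a histone deacetylase, rose from 1.10 and 1.99 CPM in GM to 40.5 and 42.3 CPM at 24 h (log2 fold change 4.72, SE 0.16, adjusted p = 2.7e-10). Over that list, 18 of 38 were lower and 9 higher (47.4% and 23.7%, against 30.0% and 30.6% of all genes). The SWI/SNF remodelling complex, whose ATPases PFI-3 binds, held 8 higher and 7 lower genes of 25 (32.0% and 28.0%, near the 30.6% and 30.0% of all genes); 4 were lower without GM library A and 4 without 24 h library A. Within it the ATPase gene Smarca2 rose from 19.7 and 28.3 to 52.7 and 52.6 CPM (log2 fold change 1.13, SE 0.17, adjusted p = 0.000105) and Smarcd3, the muscle subunit BAF60c, from 54.7 and 55.2 to 91.6 and 91.0 CPM. Smarca4, the other ATPase, was at 477 and 435 CPM in GM and 373 and 389 CPM at 24 h (log2 fold change -0.26, adjusted p = 0.0114); the call was lost without GM library A (0.0548) and without 24 h library A (0.0821). Dpf1, a subunit of a neuronal form, fell from 11.4 and 9.23 to 4.12 and 3.33 CPM. Of clock genes, 9 of 20 were higher and 2 lower (45.0% and 10.0%, against 30.6% and 30.0% of all genes). Rora, a nuclear receptor gene of that list, rose from 0.862 and 1.40 to 5.87 and 4.88 CPM.

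**Figure D5:**
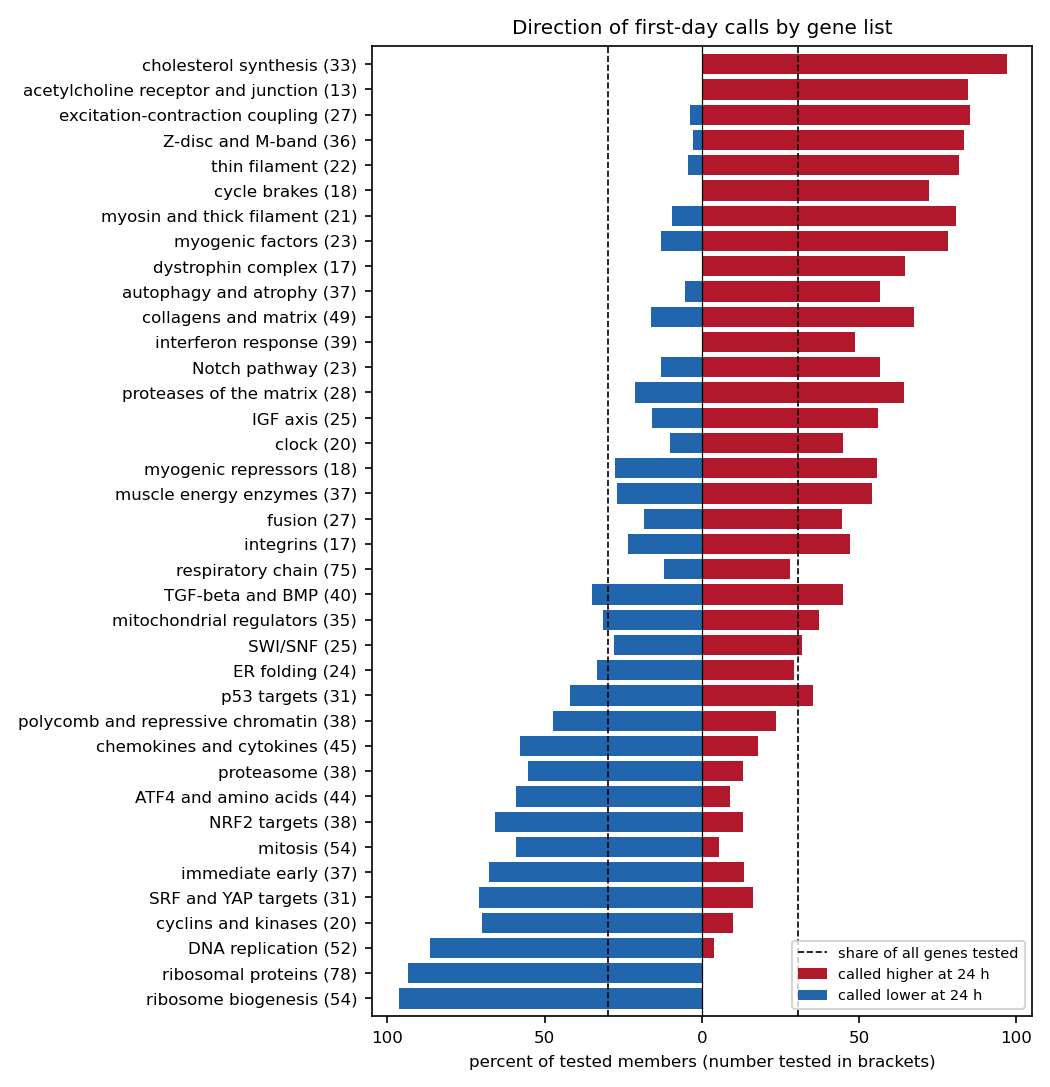
Percent of the tested members of 38 gene lists called higher (red, to the right) or lower (blue, to the left) at 24 h, with the number tested in brackets. Dashed lines mark 30.6% and 30.0%, the shares of all genes tested; cholesterol synthesis (32 of 33 higher) and ribosome biogenesis (52 of 54 lower) are at the ends.

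The identity of the cells was checked on markers. Of 7 markers of the muscle lineage all 7 were tested and 6 were higher at 24 h, among them Cdh15, M-cadherin, from 163 and 128 to 639 and 661 CPM, and 1 was lower (Myf5, whose adjusted p was 0.0584 without 24 h library B). Of 50 markers of 9 other lineages, 14 were listed for none of the 12 libraries, 24 had at most 8 counts in each of the 4 libraries and 12 had more. The 36 listed markers together took 0.0363% and 0.0488% of counts in growth medium and 0.0402% and 0.0403% at 24 h, so the ranges overlapped. Of the immune markers, Ptprc, the leukocyte antigen CD45, had at most 1 count in a library, while Cd68, a lysosomal protein of macrophages and other cells, was called lower, from 5.41 and 2.51 to 0.872 and 1.63 CPM, but not without GM library A (adjusted p = 0.112) or 24 h library A (adjusted p = 0.086). Of the neuronal and epithelial ones Rbfox3 and Epcam had at most 2. Pecam1, of endothelium, had at most 2 counts. Adipoq, of fat cells, was at 0 in all 4 libraries, Pparg fell from 17.6 and 19.4 to 3.17 and 3.10 CPM and Cebpa was called higher, from 3.37 and 7.75 to 11.3 and 10.7 CPM (log2 fold change 0.97, adjusted p = 0.0175). That call was lost without GM library A (0.122), 24 h library A (0.0743) or 24 h library B (0.0532) and when only the 4 libraries were fitted (0.0595). The factor gene Sox9, of cartilage, was at 84.7 and 90.9 CPM in GM and 77.0 and 78.3 CPM at 24 h and was not called, and Tubb3, a tubulin of neurons, fell from 66.5 and 68.4 to 25.0 and 21.9 CPM. Of the bone markers Alpl had at most 1 count, Runx2 fell from 155 and 146 to 108 and 111 CPM, and Dmp1, a matrix protein of osteocytes, rose from 0.157 and 1.03 to 17.4 and 14.3 CPM (log2 fold change 4.69, SE 0.46, adjusted p = 3.17e-06; 3.93 without GM library A and 6.58 without GM library B). Cd34 is a marker of fibro-adipogenic cells that myogenic cells can also express. It was at 37.3 and 106 CPM in GM and 96.1 and 98.9 CPM at 24 h and was not called. Its log2 fold change was -0.12 without GM library A and 1.39 without GM library B. Dcn, decorin, of the same list, rose from 0 and 0.517 to 12.5 and 13.2 CPM (log2 fold change 4.61 without GM library A; without GM library B the remaining growth library was at 0). The summed share of the fibro-adipogenic list was 0.00483% and 0.0151% in GM and 0.0154% and 0.0159% at 24 h. In bulk RNA, a change in the number of cells that express a gene and a change in the RNA per cell cannot be told apart, and the part of such cells in the results was not tested.

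Whether the first day differed in the presence of PFI-3 was tested as an interaction in the same model. At an adjusted p under 0.05 it differed for 423 of 12545 genes (3.37%), of which 223 had a higher and 200 a lower log2 fold change with the inhibitor. The count lay between 92 and 995 when 1 of the 8 libraries was left out and was 79 when only those 8 were fitted, so it depends on which libraries are fitted. Among the genes named above, Id3 had a log2 fold change of -1.60 with PFI-3 against -3.45 with DMSO, Dag1 of 1.28 against 2.30 and Dll1 of 4.14 against 5.56. These 3 differences were called in each of the 8 fits that left out 1 library. The lower value of Myog with PFI-3, 9.27 against 11.58, was called in 2 of those 8 fits.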

How the data were processed

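RNA-seq tables of C2C12 libraries were used, 1 per library. Per the file headers, the authors deposited expected counts and FPKM values per gene. HISAT, StringTie, Cufflinks, Bowtie, RSEM, DESeq2 and the build mm10 are named in the submitters' processing notes, without versions or roles. A gene missing from a table was taken as 0. No column was left unmapped.

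Expected counts were rounded (93.4% to 93.6% were whole) and fitted with edgeR 4.0.16 in R 4.3.3: TMM scaling, filterByExpr, a quasi-likelihood model of 6 groups over 12 libraries, and Benjamini-Hochberg adjustment over all genes tested. FPKM served for levels between genes. Labels call libraries A and B biological duplicates and nothing says more, so p-values measure only the spread between these libraries. That spread was estimated over all 6 groups of the 12 libraries. The GM pair was further apart than the 24 h pair (SD of log2 ratios 0.318 and 0.135). The p-values can therefore be too small for this contrast. Intervals and floors cover counting error only. On simulated counts for this contrast, with 200 of 12545 genes changed 2-fold, edgeR recovered 90.0% with 4.76% false calls. The simulation gave all groups the same spread per gene and changed few genes, equally up and down. In the data the GM pair was further apart and 7602 genes were called, so these rates need not hold here. Alternatives used DESeq2 1.42.0, limma 3.58.1 on log2 FPKM computed from the deposited values, other filters and scalings, and left-out libraries.

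Genes named are markers and regulators from a fixed table, the 12 largest rises and falls above 10 CPM without overlap, the 6 largest CPM gains and losses, the 3 largest changes and the highest FPKM of each list, genes switched on or off, and the 6 genes most different between GM libraries each way; some genes the rule names are not reported here. Members and lists were chosen with earlier results of these data known. Promoter windows are from RefSeq (GRCm38.p6), and no genome sequence beyond them was used.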

Additional observations from a re-analysis of the deposited data

Results flagged for a closer look

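The first day gave a different log2 fold change with PFI-3 than with DMSO in 31 of 169 genes named here, by the edgeR test of the interaction. Over all genes tested the share was 3.37%. Many of the named genes were chosen for a large change with DMSO, so the 31 are not comparable with that share. The differences below are those with PFI-3 minus those with DMSO. The difference subtracts the change with DMSO, so naming genes for a large change with DMSO favours smaller changes with PFI-3. The split of the 31 therefore gives no direction of an effect of PFI-3. Over all genes tested, 223 called differences were higher and 200 lower with PFI-3. In 18 of the 31 the rise seen with DMSO was smaller or absent with PFI-3, and in 10 the fall seen with DMSO was smaller or absent. The call held in each of the 8 fits without 1 library for 11 genes. Of these, the genes that rose with DMSO had differences of -2.91 for Atp2a1 (SE 0.38, adjusted p = 0.00214), -1.16 for Col1a1 (SE 0.10, adjusted p = 0.000292), -7.30 for Cox6a2 (SE 0.65, adjusted p = 0.000292), -1.02 for Dag1 (SE 0.12, adjusted p = 0.00121), -1.42 for Dll1 (SE 0.19, adjusted p = 0.003), -1.42 for Dtx4 (SE 0.17, adjusted p = 0.0015), -2.45 for Myh3 (SE 0.32, adjusted p = 0.00214), -0.84 for Rb1 (SE 0.11, adjusted p = 0.00209) and -4.74 for Tnni1 (SE 0.71, adjusted p = 0.00485). Those that fell with DMSO had differences of 0.97 for Grem1 (SE 0.11, adjusted p = 0.000875) and 1.85 for Id3 (SE 0.21, adjusted p = 0.00111).

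Cox6a2 was the one of the 9 rising genes just listed that had no higher count at 24 h with the inhibitor: its counts with PFI-3 were 33 and 19 in GM and 15 and 16 at 24 h. With DMSO, Cox6a2 and Tnni1 each had 1 count in one GM library and 0 in the other, so both fitted differences depend on the prior count. Tnni1 rose in both treatments, and with PFI-3 it went from 5 and 5 counts to 506 and 512.

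The other 20 calls were lost in at least 1 fit that left out a library. Smaller rises had differences of -1.52 for Acss2 (SE 0.37, adjusted p = 0.0445), -1.61 for Actc1 (SE 0.34, adjusted p = 0.0427), -0.33 for Bin1 (SE 0.08, adjusted p = 0.0476), -1.30 for Cdkn1c (SE 0.31, adjusted p = 0.0414), -0.50 for Megf10 (SE 0.10, adjusted p = 0.0189), -1.67 for Mest (SE 0.36, adjusted p = 0.0289), -2.00 for Mymk (SE 0.45, adjusted p = 0.0352), -2.31 for Myog (SE 0.44, adjusted p = 0.0175) and -2.72 for Tnnt1 (SE 0.61, adjusted p = 0.0342). The counts of Myog with PFI-3 were 6 and 12 in GM and 5413 and 5251 at 24 h. Smaller or absent falls had differences of 1.51 for 1700012B09Rik (SE 0.30, adjusted p = 0.0189), 0.83 for Ccnd2 (SE 0.20, adjusted p = 0.0435), 0.36 for Eef1a1 (SE 0.08, adjusted p = 0.0386), 0.78 for Ftl1 (SE 0.14, adjusted p = 0.0138), 0.48 for Gapdh (SE 0.08, adjusted p = 0.0116), 1.57 for Itgb7 (SE 0.31, adjusted p = 0.0212), 0.45 for Rpl14 (SE 0.09, adjusted p = 0.0259) and 0.48 for Vim (SE 0.11, adjusted p = 0.0385). In the other direction the differences were 1.01 for Bnip3 (SE 0.20, adjusted p = 0.0207) and 0.45 for Chrna1 (SE 0.08, adjusted p = 0.0165), where the rise was larger with PFI-3. The counts of Chrna1 with PFI-3 were 917 and 1008 in GM and 5332 and 5387 at 24 h. With DMSO they were higher at both stages, 2423 and 2558 in GM and 10272 and 10654 at 24 h. For Atf4 the difference was -1.06 (SE 0.26, adjusted p = 0.0476), and its GM libraries with PFI-3 held 8995 and 5104 counts.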

How the results depend on the processing

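The counts of genes higher and lower at 24 h stayed within 1.5 times of the reported ones under every alternative run, from 3172 to 4132 higher and from 3027 to 3807 lower. With 1 library left out they were 3177 to 3894 higher and 3027 to 3777 lower, and the 2-fold counts were 1403 to 1790 higher and 668 to 905 lower; an arm with a lone sample is assumed to vary like the other groups. Genes at least 2-fold changed numbered 954 higher and 460 lower with limma on log2(FPKM + 1), where the pseudocount shrinks the change of low genes. The DESeq2 Wald test called 3305 higher and 3291 lower, of which 3291 and 3283 were called in the same direction by edgeR. The first-day changes that differed with PFI-3 numbered 79 when only the 8 libraries were fitted, 101 in that fit with the replicate block, and 92 to 995 with 1 library left out; the cause was not tested. The letters A and B were also fitted as a replicate block. Same-letter deviations from the group means had a correlation of -0.004, which gives no sign that the letters pair the libraries; with the block the 12-library fit called 3845 higher and 3748 lower, and the fit of the 4 libraries 3172 higher and 3041 lower, where the calls of Ccna2 (adjusted p = 0.125), Eef1a1 (adjusted p = 0.0743), Gapdh (adjusted p = 0.0812) and Smarca4 (adjusted p = 0.0789) were lost. Of the named genes, 4 reversed, all without GM library A: the log2 fold change of Ccl5 was 2.05 (-4.25 without GM library B), of Tpm1 0.05 (-0.57), of Cd34 -0.12 (1.39) and of Itgb1 0.00 (-0.52). In 10 lists a count of at most 7 members in the less common direction moved by over 1.5 times. Some larger counts moved as far in a fit of the 4 libraries. Without and with the block, proteasome genes lower went from 21 to 14 and 11. Respiratory chain genes higher went from 21 to 16 and 13, and muscle energy enzymes higher from 20 to 13 and 14. The list counts were added as alternatives after the data had been seen. Depth limits genes near 0 in GM, whose fitted fold changes depend on the prior count.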

Other observations

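Among the 45 genes that went from at most 3 counts in both GM libraries to at least 100 in both 24 h libraries were several best known from other tissues. Otog, a component of the membranes that cover sensory cells of the inner ear, had 0 and 2 counts in GM and 18.7 and 17.3 CPM at 24 h. Ctrb1, a digestive protease of the pancreas, had 1 and 0 counts and then 15.7 and 13.1 CPM. The adenosine receptor gene Adora1 had 1 and 1 counts and then 22.0 and 21.4 CPM. All 3 genes were higher in both 48 h libraries than at 24 h, with means of 67.5, 68.3 and 144 CPM.

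Of the other genes that met this rule, 4 are given here. Scara5, a ferritin receptor, had no count in GM and was at least 160-fold higher at 16.6 and 19.8 CPM. Prelp, a leucine-rich proteoglycan, had 0 and 3 counts and then 51.9 and 49.4 CPM, Car9, a carbonic anhydrase of the cell surface, 3 and 1 counts and then 13.2 and 12.9 CPM, and Arpp21, a regulator of calmodulin signalling, 2 and 3 counts and then 44.8 and 43.5 CPM. The rule sets the gap between the stages for these 7 genes.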
